A study of Homo sapiens with 6 samples.

Results

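The SR splicing factors SRSF1, SRSF2, SRSF3, SRSF4, SRSF5, SRSF6, SRSF7, SRSF9, SRSF10 and SRSF11 were followed at the level of genes, annotated transcript types and single transcripts. They were chosen by gene symbol: every transcript in the count table whose GENCODE v29 symbol was one of these 10 was taken, which gave 104 of the 98803 matched transcripts and 10 of 18768 genes. The libraries came from HCT116, an established human colorectal cancer cell line kept in DMEM with serum, and were made as paired-end TruSeq libraries read on an Illumina NovaSeq. In the si-AC010789.1 group (3 replicates) the cells received 1 siRNA specific for the long non-coding RNA AC010789.1, and in the siRNA-NC group (3 replicates) a negative control siRNA, both with Lipofectamine. The question set by the design is what differs after silencing of AC010789.1. The level of AC010789.1 itself was not analysed here, so the labels were not checked against it. The study's text speaks of biological repeats made with cells of differing generations, without saying which library came from which generation, and every p-value measures the spread between these samples.

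SR proteins carry RNA recognition motifs that bind exonic enhancers and a tail of alternating arginine and serine (the RS domain) that recruits the splicing machinery. Many SR genes limit their own output: the protein promotes a splicing choice in its own pre-mRNA that brings in a stop codon ahead of an exon junction, and the product is degraded by nonsense-mediated decay (NMD). Exons that act in this way are called poison exons, and other transcripts of these genes keep an intron and largely stay in the nucleus. GENCODE labels such products nonsense_mediated_decay (here decay transcripts) and retained_intron. These labels come from the annotation and say nothing of whether a molecule was degraded in these cells.

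The ends of the reading frames show where the decay transcripts stop, at a place of their own in some genes and at a coding stop in others, so they are printed for the genes whose decay transcripts carried many counts or changed place with another transcript. Each sequence is the last 30 bases of the open reading frame in the GENCODE v29 transcript (GRCh38), 5′ to 3′, with the stop codon in capitals. For SRSF3 (plus strand) the coding frame of SRSF3-202 ends at chr6:36601793-36601989, across an intron, and that of the decay transcript SRSF3-203 at chr6:36599825-36599854. For SRSF6 (plus strand) the ends of SRSF6-201 and the decay transcript SRSF6-202 lie at chr20:43461034-43461063 and chr20:43459275-43459304. For SRSF7 (minus strand) those of SRSF7-209 and the decay transcript SRSF7-204 lie at chr2:38745133-38745162 and, across an intron, chr2:38749319-38749530. For SRSF9 (minus strand) those of SRSF9-201 and the decay transcript SRSF9-206 lie at chr12:120462019-120462048 and, across an intron, chr12:120464812-120465645. For SRSF5 (plus strand) those of SRSF5-201 and the decay transcript SRSF5-211 lie at chr14:69771432-69771461 and chr14:69769532-69769561. For SRSF1 (minus strand) those of the coding transcripts SRSF1-201 and SRSF1-205 lie at chr17:58005406-58005435 and chr17:58005747-58005776, and the decay transcript SRSF1-204 ends at the same place as SRSF1-205.
SRSF3-202: agtcgatctaggtcaaatgaaaggaaaTAG
SRSF3-203: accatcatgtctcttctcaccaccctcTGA
SRSF6-201: tcaaggtccaggtcgagttccagagatTAA
SRSF6-202: gccatgacgacagcagccttttgccatTAG
SRSF7-209: agaagtgcaagtcctgaaagaatggacTGA
SRSF7-204: aggtttcttcgtttgagtcagtcgcctTGA
SRSF9-201: cactacttctctcctttcaggccctacTGA
SRSF9-206: ttccgagttcttgtttcagaaaactatTAG
SRSF5-201: aggtccagatcagttgacagtggcaatTAA
SRSF5-211: atgacgaggagtgcctgtgggttatccTAA
SRSF1-201: cgtcatagcagatctcgctctcgtacaTAA
SRSF1-205: tttgaccagaattggatacagtggtctTAA

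In SRSF3, SRSF6, SRSF7 and SRSF9 the stop of the decay transcript lay in an exon that shared 0 bases with the exons of the coding transcripts, as a poison exon does. This exon was 456 nt long in SRSF3-203 (chr6:36599821-36600276), 268 nt in SRSF6-202 (chr20:43459153-43459420), 449 nt in SRSF7-204 (chr2:38748898-38749346) and 90 nt in SRSF9-206 (chr12:120464733-120464822). SRSF4-206, the only listed decay transcript of SRSF4, had the same layout with an exon of 175 nt. The frame was cut before most of the RS domain. SRSF3-203 encoded 124 codons with 4 neighbouring arginine and serine codons (RS or SR pairs), against 164 codons and 25 pairs in SRSF3-202. SRSF6-202 encoded 135 codons with 2 pairs against 344 codons with 76 pairs, and SRSF7-204 encoded 137 codons with 7 pairs against 226 codons with 48 pairs in SRSF7-209. SRSF5-211 ended in a coding exon extended into an intron, after 138 codons with 5 pairs, where SRSF5-201 has 272 codons with 52 pairs. The short coding transcript SRSF5-206, with at most 4 counts in a library, ends at the same stop. SRSF2-208 kept the stop and all 221 codons of SRSF2-203 and differed by junctions downstream of the stop. Over the 10 leading decay transcripts the distance from the stop to the last exon junction ran from 105 nt in SRSF2-208 to 1090 nt in SRSF5-211. It was always above the 50 nt that is commonly taken as the limit for decay. The label itself marks a stop ahead of an exon junction, so these distances are no separate evidence of decay.

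SRSF1, the founding member of the family, stood apart among the coding transcripts. SRSF1-205 was annotated as protein coding but held 201 codons with 4 RS or SR pairs, and it received 3785, 4551 and 4628 counts in siRNA-NC replicates 1 to 3 and 3832, 3985 and 4025 in si-AC010789.1 replicates 1 to 3. SRSF1-201, with 248 codons and 31 pairs, received 17, 16 and 15 counts and 16, 16 and 12 counts. Coding transcripts that kept at least 50% of the pairs of the richest frame of the gene (SRSF1-201 and SRSF1-208) took only 1.38% to 2.81% of the SRSF1 counts of a library. The corresponding share was 88.8% to 92.0% in SRSF6, 67.1% to 79.5% in SRSF3, 66.1% to 78.5% in SRSF2, 47.6% to 58.8% in SRSF9, 24.6% to 73.2% in SRSF7, 19.9% to 38.1% in SRSF5, 21.0% to 23.8% in SRSF11, 17.5% to 23.7% in SRSF10 and 10.0% to 23.0% in SRSF4. The value of SRSF10 depends on the 50% limit. Its coding transcript SRSF10-204, with 183 codons and 19 pairs against 42 in the richest frame, fell below that limit. SRSF10-204 took 477 to 734 counts per library, against 472 to 749 for SRSF10-203, which was included. SRSF1-205 is 3117 nt long and SRSF1-201 is 1513 nt long, and the way reads common to several transcripts were assigned is not given in the sources used here. In exons SRSF1 also overlaps AC015813.2 on the same strand over 1890 nt, a gene with a mean of 42.0 counts per library.

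Library totals ran from 11277222 to 13443866 counts, and the members took 0.171% to 0.181% of them. In the whole library 3.17% to 3.36% of counts lay on decay transcripts and 5.86% to 6.30% on retained-intron transcripts. The epithelial markers KRT8 (5558 to 11278 counts) and KRT18 (4395 to 6129 counts) were abundant, while EPCAM had 35 to 68 counts and CDH1 8 to 13. CLDN7 had 217 to 331 counts, and CLDN4 had 290 to 331 counts in 4 libraries but only 4 and 22 in replicates 2 and 3 of si-AC010789.1. The epithelial markers KRT19, CDX2 and VIL1 had no counts listed. Of 8 markers of leukocytes, endothelium and fibroblasts, 4 were listed in the table, with a summed level of 446 to 659 counts under siRNA-NC and 487 to 641 under si-AC010789.1, mostly from the collagen gene COL1A1. The markers PTPRC, CD3E, PECAM1 and COL1A2 of such cells had no counts listed. Counts of replicates of 1 group differed by 13.6 to 16.8 times the variance expected from sampling alone, so no library was a copy of another.

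The SR genes carried far fewer of their counts on coding transcripts than most genes did. Over the 6 libraries the median share on coding transcripts was 51.9% among the 10 members, against 94.6% among 9974 genes with at least 100 counts and 94.1% among 25 hnRNP genes, another family of splicing regulators. All 10 members lay below the median of all genes. The median share on decay transcripts was 7.94%, against 4.05% in all genes with such a transcript, and 8 of 10 members were above that median. On retained-intron transcripts the median was 27.2% among 8 members, against 5.23%, and 6 of 8 were above it. These shares describe the annotation as much as the cells, since each depends on which transcripts are listed for a gene.

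**Figure D1:**
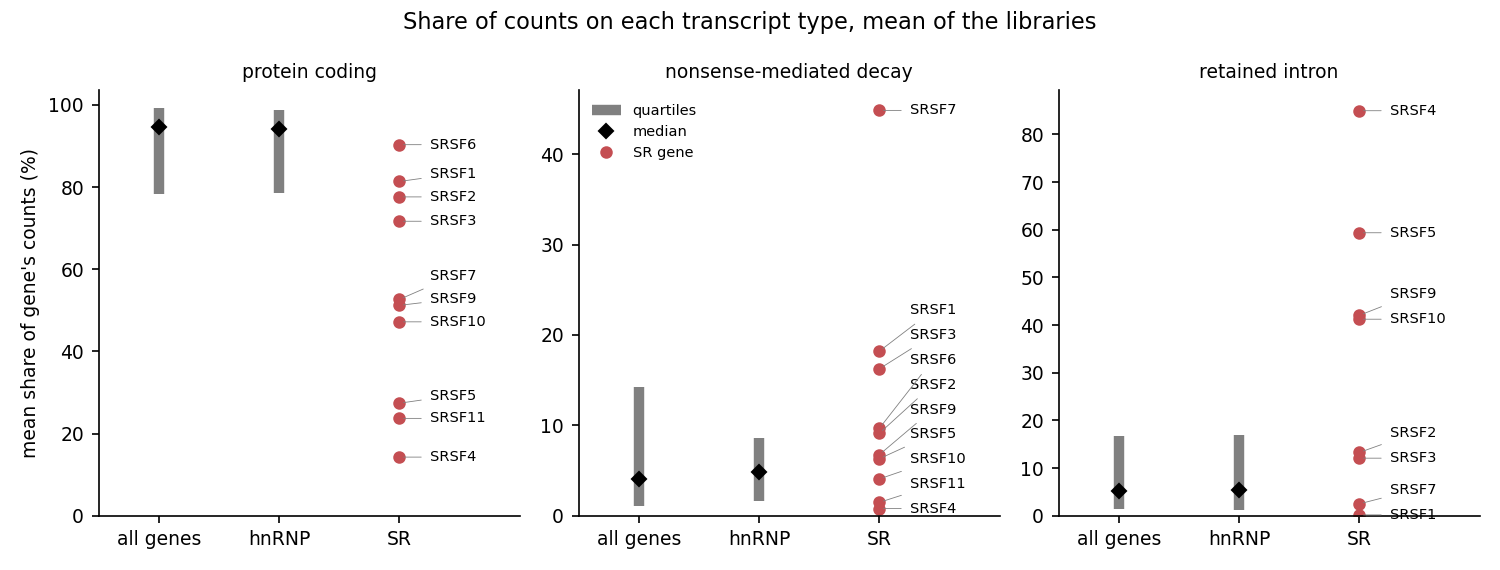
Mean share of a gene's counts (%, y axis) on coding, decay and retained-intron transcripts over the 6 libraries. Red points are SR genes, grey bars span the quartiles and black diamonds mark the medians of all genes and of the hnRNP genes; SRSF7 lies at 44.9% on decay transcripts and SRSF4 at 85.0% on retained-intron transcripts.

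The members differed widely in which type took the counts. SRSF7, which has a zinc knuckle beside its RNA recognition motif and takes part in mRNA export, had the highest mean share on decay transcripts, 44.9%, a value above that of 95.0% of genes. SRSF1 followed with 18.2% and SRSF3, the smallest SR protein, with 16.3%. SRSF6 (9.68%), SRSF2 (9.13%), SRSF9 (6.76%) and SRSF5 (6.31%) were intermediate, and SRSF10 (4.07%), SRSF11 (1.48%) and SRSF4 (0.785%) were low. Retained-intron transcripts took 85.0% of the counts of SRSF4, 59.4% of SRSF5, 42.0% of SRSF9 and 41.2% of SRSF10, but only 0.160% of SRSF1. For SRSF6 and SRSF11 no such transcript is annotated. The label leaves out SRSF1-205, which took most SRSF1 counts and is typed as coding. SRSF1-205 has 2 junctions, against 3 in SRSF1-201. Its last exon (chr17:58003360-58005973) holds the whole last exon of SRSF1-201 (chr17:58004849-58005600) and the whole intron upstream of that exon. SRSF1-205 shares 1428 nt with SRSF1-201, or 94.4% of SRSF1-201. SRSF11 held 74.8% of its counts on other types, mainly on the processed transcript SRSF11-214 with 752 to 943 counts per library.

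**Figure D2:**
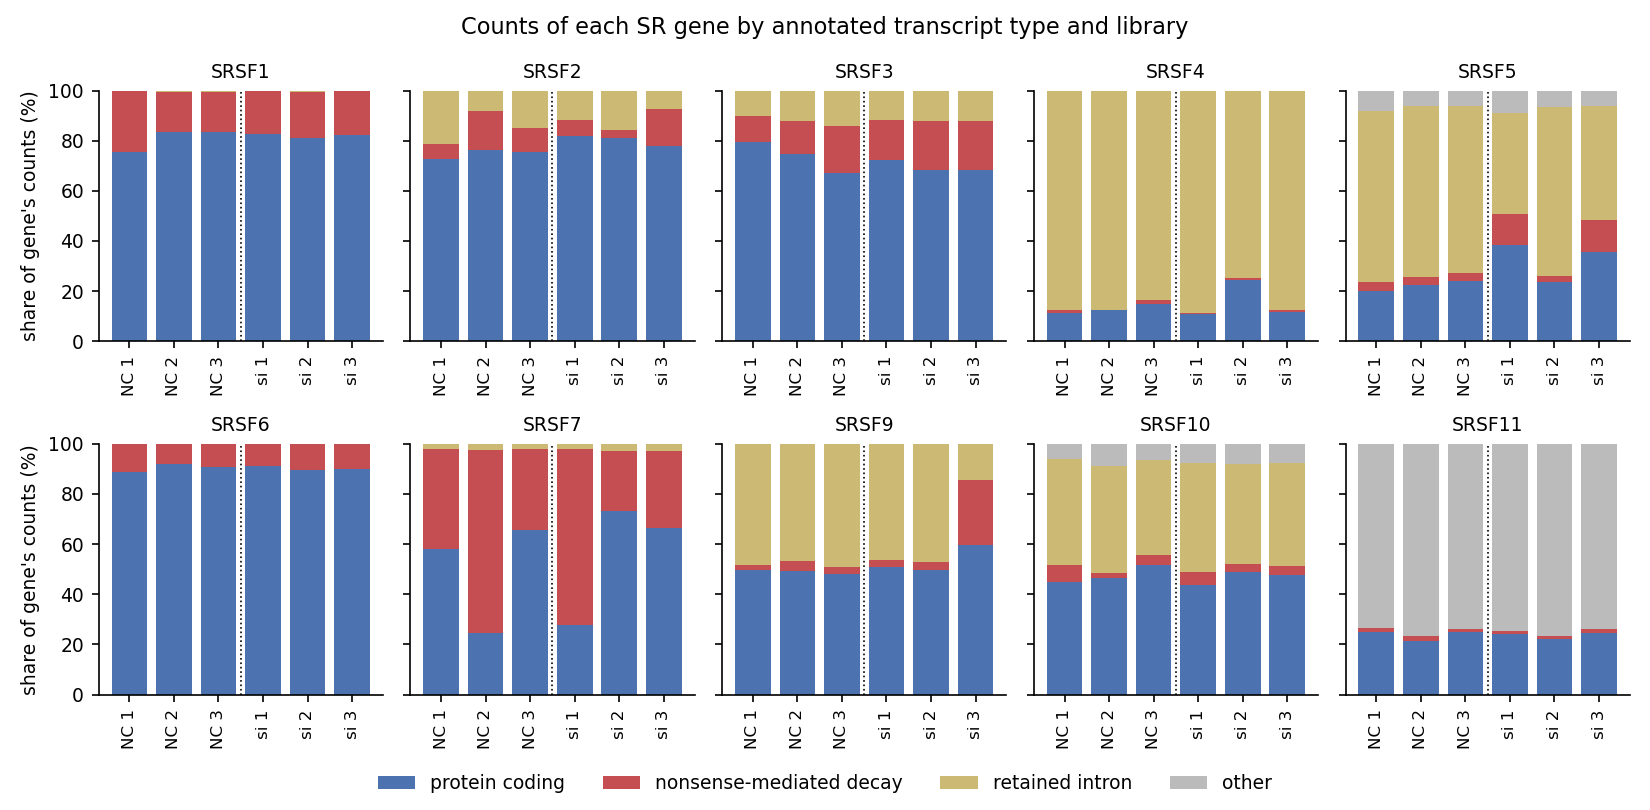
Share of each SR gene's counts (%, y axis) by transcript type in siRNA-NC (NC 1 to 3) and si-AC010789.1 (si 1 to 3), left and right of the dotted line. Blue is coding, red decay, yellow retained intron and grey other; the bars of SRSF6 and SRSF11 are alike in all 6 libraries, while those of SRSF7, SRSF5 and SRSF9 differ between libraries of the same group.

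Few retained-intron transcripts held a whole intron of the leading coding transcript, the only one whose introns were compared. In SRSF1 and SRSF2 the leading coding transcripts SRSF1-205 and SRSF2-203 have 2 and 1 junctions, against 3 in SRSF1-201 and 2 in SRSF2-202. Introns spliced only in other coding transcripts could therefore not be found. SRSF5-207 kept introns 4 and 5 of the 7 introns of SRSF5-201 (chr14:69768897-69769181 and chr14:69769252-69770466), and SRSF5-212 kept intron 5 alone. SRSF5-214, SRSF5-218 and SRSF5-219 kept 1 intron each. SRSF4-208 kept intron 2 of the 5 introns of SRSF4-201 (chr1:29159487-29160374), and SRSF3-205 kept introns 4 and 5 of SRSF3-202 (chr6:36601191-36601707 and chr6:36601795-36601961). The leading retained-intron transcripts SRSF3-207, SRSF4-205, SRSF7-211, SRSF9-204 and SRSF10-213 contained none of the introns of the leading coding transcript in full. SRSF4-205 shares 470 nt with the coding SRSF4-201, or 91.1% of its own length.

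Gene sums were compared first, to see whether silencing of AC010789.1 came with a change in the total output of the SR genes. In such bulk libraries fewer expressing cells and less RNA per cell cannot be told apart. No SR gene changed by the test: 0 of 10 had an adjusted p under 0.05 in the quasi-likelihood test of edgeR, adjusted by Benjamini-Hochberg, where 0.944% of the 13764 genes tested passed. At an unadjusted p under 0.05 there were also 0, against 17.2% of all genes, and DESeq2 called 0 where it called 5.18%. The criteria of the study (unadjusted p under 0.05, log2 fold change past 1 in size) were met by 0 members and by 0.777% of all genes. The groups did not overlap in 2 of 10 members, SRSF1 and SRSF3, against 25.1% of all genes. The median log2 fold change was 0.0075 over the members and -0.00059 over all genes tested, and the adjusted p ran from 0.358 to 0.985. With 3 against 3 libraries the smallest p an exact permutation test can give is 0.1.

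Most SR genes were also steady from library to library. The highest library was between 1.08 and 1.87 times the lowest in CPM (counts scaled to library size with TMM factors), with a median of 1.15, against 1.23 among genes at or above the level of the lowest member. SRSF6 had 209, 208 and 206 CPM under siRNA-NC and 201, 217 and 209 CPM under si-AC010789.1. Its log2 fold change was 0.01 (SE 0.043). The total output of SRSF7 was as steady, with 117, 117 and 116 CPM against 115, 114 and 122 CPM. SRSF10, which represses splicing when it is dephosphorylated, and SRSF11 had log2 fold changes of 0.04 and 0.004 (SE 0.046 and 0.065).

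SRSF1 and SRSF3 were lower in each library under si-AC010789.1 than in any siRNA-NC library. SRSF1 had 457, 421 and 424 CPM under siRNA-NC and 415, 407 and 406 CPM under si-AC010789.1. Its log2 fold change was -0.08 (SE 0.046, adjusted p = 0.415 by edgeR), and the difference did not pass the test. For SRSF3 the values were 199, 192 and 194 CPM against 192, 173 and 178 CPM, with a log2 fold change of -0.11 (SE 0.052, adjusted p = 0.358 by edgeR). In both genes the highest si-AC010789.1 library lay close to the lowest siRNA-NC library.

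SRSF2, the nuclear speckle protein also known from myeloid cancers, showed the largest difference in gene sums by counts, and whether it passed the test depended on 1 library. Its counts were 1116, 2176 and 1167 under siRNA-NC and 1838, 1945 and 1913 under si-AC010789.1, or 117 ± 41.3 CPM against 157 ± 3.12 CPM (SD, n = 3). Replicate 2 of siRNA-NC was above all the others and the remaining siRNA-NC libraries were below them. The log2 fold change was 0.43 (SE 0.23, adjusted p = 0.396 by edgeR). Divided by transcript length the gap was smaller, with 155 ± 24.7 TPM under siRNA-NC against 174 ± 13.9 TPM under si-AC010789.1 (SD, n = 3, scaled to a common total), and the groups overlapped. Without siRNA-NC replicate 2 SRSF2, gene sum, had a log2 fold change of 0.75 and an adjusted p of 0.0436 by edgeR, the only one of the 6 libraries whose removal gave a call for any member. SRSF2 overlaps MFSD11 on the opposite strand over 1106 exonic nt, and no source used here states that strand was used in counting.

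**Figure D3:**
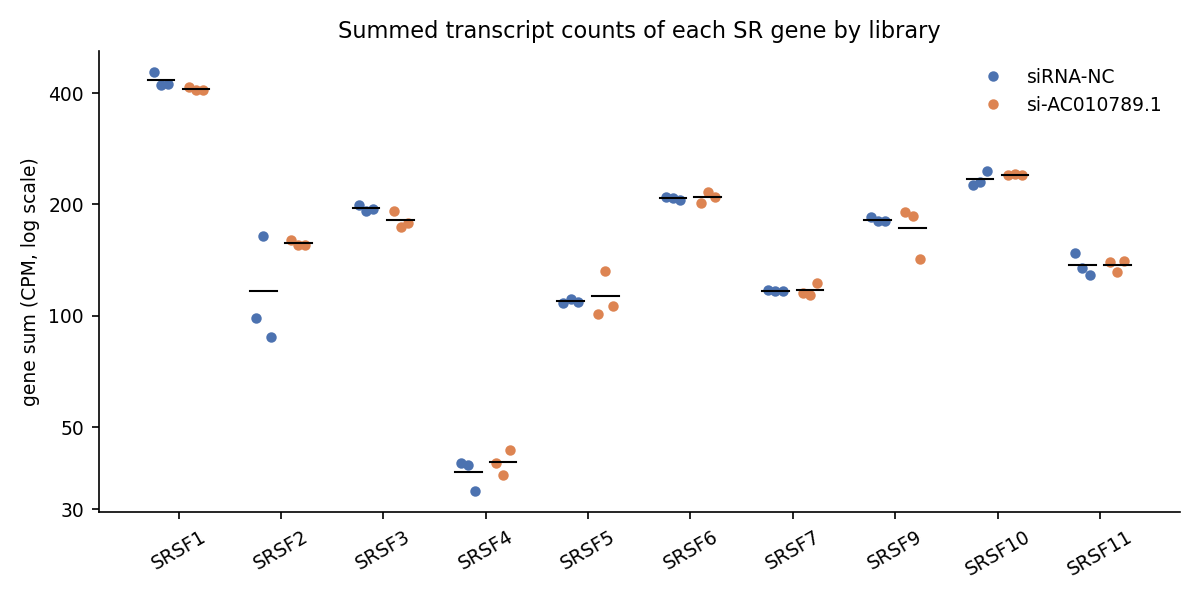
Summed counts of each SR gene in CPM (y axis, log scale), 1 point per library and a black line at the mean of 3. Blue is siRNA-NC and orange si-AC010789.1; the groups of SRSF2 differ through the siRNA-NC libraries at 98.9 and 87.6 CPM, with the third at 164 CPM.

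Per length of transcript (TPM, counts divided by annotated length and scaled to a common total), SRSF1 was the most abundant member at 317 ± 19.7 (SD over 6 libraries) and SRSF4 the lowest at 86.6 ± 32.7. SRSF9 (282 ± 22.9), SRSF10 (190 ± 8.46), SRSF2 (164 ± 20.7), SRSF3 (140 ± 8.06), SRSF11 (134 ± 8.95), SRSF5 (131 ± 15.9), SRSF6 (107 ± 4.25) and SRSF7 (103 ± 6.63) lay between them in this order. Of the 9 neighbours in the order, SRSF1 and SRSF9, SRSF9 and SRSF10, and SRSF5 and SRSF6 had ranges that did not meet. All other neighbours overlapped.

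The second comparison asked whether coding, decay or retained-intron counts moved while the total held. Of 26 sums of a member and a type that could be tested, 0 had an adjusted p under 0.05 by edgeR, where 0.122% of 23735 sums over all genes passed. At an unadjusted p under 0.05 there were 2 of 26, against 10.2% of all sums, both of SRSF5. The groups did not overlap in 2 of 26, against 18.1% of all, namely SRSF5 coding (higher under si-AC010789.1) and SRSF1 coding (lower). For SRSF1 coding they almost met, at 344.1 CPM in siRNA-NC replicate 1 and 343.7 CPM in si-AC010789.1 replicate 1. DESeq2 also called 0 after adjustment, where it called 1.83% of all, and the criteria of the study were met by 1 of 26, the decay sum of SRSF5, against 2.36% of all. Relative to the coding sum, the decay sum changed in 0 of 9 members by limma (adjusted p at least 0.944), where 0.256% of 2736 genes passed, and the retained-intron sum in 0 of 7 (adjusted p at least 0.839), where 0.0864% of 4632 genes passed. At an unadjusted p under 0.05 the counts were 0 of 9 and 0 of 7, against 4.42% and 5.46% of all genes.

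**Figure D4:**
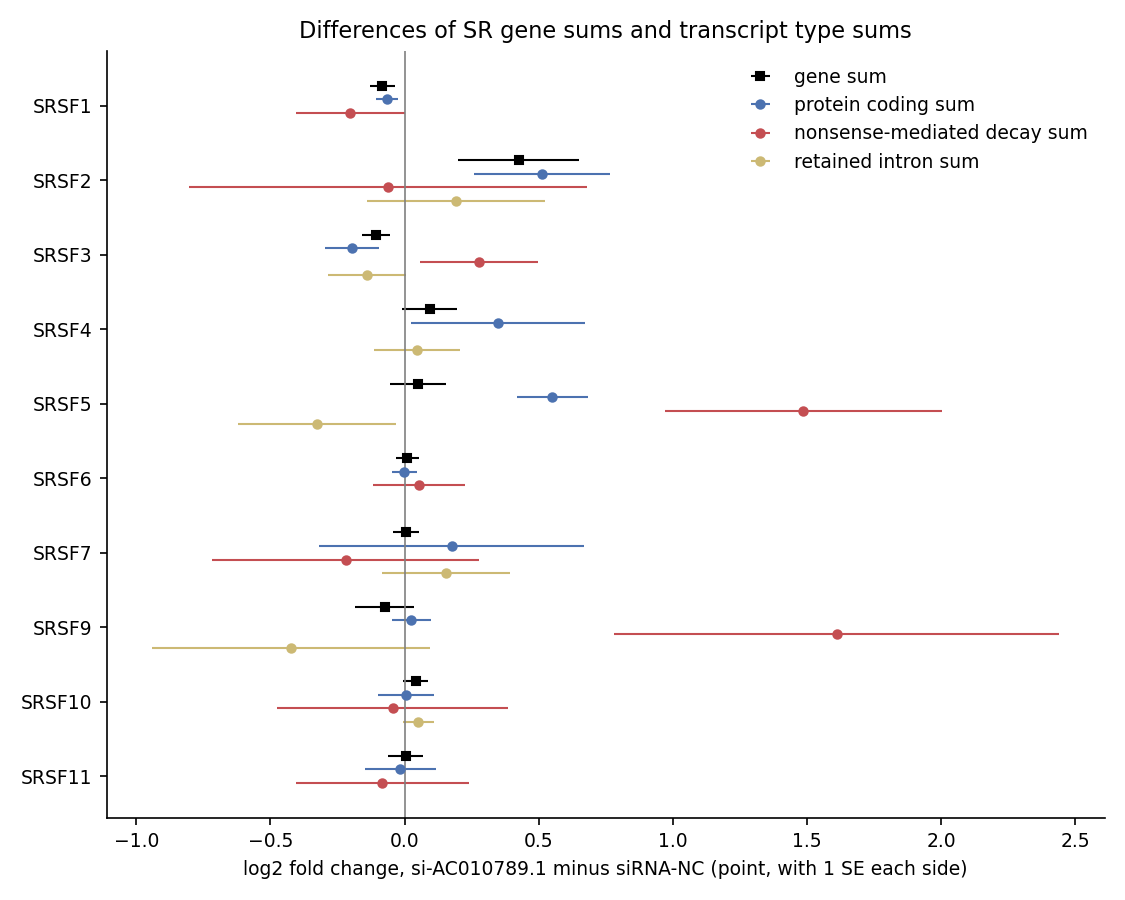
Log2 fold change of si-AC010789.1 against siRNA-NC (x axis), with 1 SE each side, for gene sums (black) and for coding (blue), decay (red) and retained-intron (yellow) sums. Gene sums cluster at 0 except that of SRSF2 (0.43, SE 0.23). The largest estimates are the decay sums of SRSF9 (1.61) and SRSF5 (1.49), whose SEs are 0.83 and 0.52.

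SRSF5, a member with a pair of RNA recognition motifs, came nearest to a difference. Its coding sum was 247, 330 and 352 counts under siRNA-NC and 444, 391 and 466 under si-AC010789.1, and the log2 fold change was 0.55 (SE 0.13, adjusted p = 0.287 by edgeR). Every si-AC010789.1 library was above every siRNA-NC library. Most of this gap lay on the coding transcript SRSF5-203: its mean was 1.13 against 11.5 CPM, where that of the coding sum was 24.4 against 35.9 CPM. The leading coding transcript SRSF5-201 overlapped between groups, with 183, 222 and 274 counts against 184, 303 and 273. It shares 1513 nt with SRSF5-203. The decay transcript SRSF5-211 had 41, 47 and 46 counts against 144, 44 and 171, a log2 fold change of 1.49 for the decay sum (SE 0.52, adjusted p = 0.431 by edgeR). Replicates 1 and 3 of si-AC010789.1 were high and replicate 2 lay at the siRNA-NC level. The retained-intron sum was the mirror image, with 838, 999 and 969 counts under siRNA-NC and 467, 1116 and 596 under si-AC010789.1, where replicates 1 and 3 were low. Its log2 ratio to the coding sum differed by -0.96 between groups (adjusted p = 0.839 by limma).

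Of the single transcripts of SRSF5, SRSF5-203 and SRSF5-212 followed the same split. SRSF5-207 and SRSF5-205 did not, and in them replicate 1 of si-AC010789.1 was the lowest library. SRSF5-203, a coding transcript with a frame of 272 codons, had 0, 25 and 20 counts under siRNA-NC and 231, 32 and 146 under si-AC010789.1. SRSF5-212, which keeps intron 5, had 205, 476 and 448 counts against 107, 567 and 60. SRSF5-207, which keeps introns 4 and 5, had 419, 412 and 370 counts against 225, 345 and 324, so that the groups did not overlap. SRSF5-205, a coding transcript of 269 codons, had 53, 69 and 49 counts against 13, 43 and 38. None of these transcripts had an adjusted p under 0.05.

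SRSF9, whose RS domain is short, differed in 1 library of 6. The decay transcript SRSF9-206 had 44, 91 and 65 counts under siRNA-NC and 65, 70 and 455 under si-AC010789.1. In the same library, si-AC010789.1 replicate 3, the retained-intron transcript SRSF9-204 had 116 counts, against 770 to 925 in the other libraries. Coding counts of SRSF9 stayed between 1040 and 1181 in all 6 libraries. The decay sum had a log2 fold change of 1.61 (SE 0.83, adjusted p = 0.598 by edgeR), and without si-AC010789.1 replicate 3 the SRSF9, nonsense_mediated_decay sum, had a log2 fold change of 0.10. SRSF9 overlaps GATC on the opposite strand over 1729 exonic nt, a gene with a mean of 470 counts per library.

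In SRSF7 a coding and a decay transcript changed places from library to library, in both groups. The coding transcript SRSF7-209 had 529, 18 and 657 counts under siRNA-NC and 25, 714 and 701 under si-AC010789.1. The decay transcript SRSF7-204 had 180, 907 and 232 counts against 786, 107 and 182. Replicate 2 of siRNA-NC and replicate 1 of si-AC010789.1 thus stood apart from the other 4 libraries. Together the 2 transcripts varied 1.14 times between libraries in CPM, and SRSF7-209 took 1.95% to 87.0% of their sum. They share 2372 nt, which is 96.7% of SRSF7-209 and 83.0% of SRSF7-204. The decay share of SRSF7 was 39.6%, 72.8% and 32.0% under siRNA-NC and 70.2%, 23.9% and 30.7% under si-AC010789.1, so that the spread within a group exceeded the gap between the means (48.1% against 41.6%). SRSF7-201, the longer coding transcript, stayed at 217 to 341 counts.

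In SRSF2 and SRSF4 pairs of transcripts of the same type also differed in proportion between libraries. The coding transcript SRSF2-205 had 380, 0 and 425 counts under siRNA-NC and 0 in all libraries under si-AC010789.1, where the limit of 3 counts equals 0.241 to 0.261 CPM. SRSF2-203 had 182, 1125 and 177 counts against 846, 934 and 1079. The siRNA-NC libraries with SRSF2-205 counts were therefore those with few SRSF2-203 counts and with the low SRSF2 gene sum. All 1390 nt of SRSF2-205 are contained in SRSF2-203. Unlike that of the SRSF7 pair, the sum of this pair was not steady and varied 1.93 times between libraries in CPM. The decay transcript SRSF2-208 ranged from 1 to 319 counts, with both extremes in replicate 2 libraries of different groups. In SRSF4 the retained-intron transcript SRSF4-205, 516 nt long, had 317, 334 and 231 counts under siRNA-NC and 250, 44 and 351 under si-AC010789.1, while SRSF4-208, 8128 nt long, had 77, 125 and 141 counts against 154, 303 and 116. Here replicate 2 of si-AC010789.1 was the library that stood apart.

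**Figure D5:**
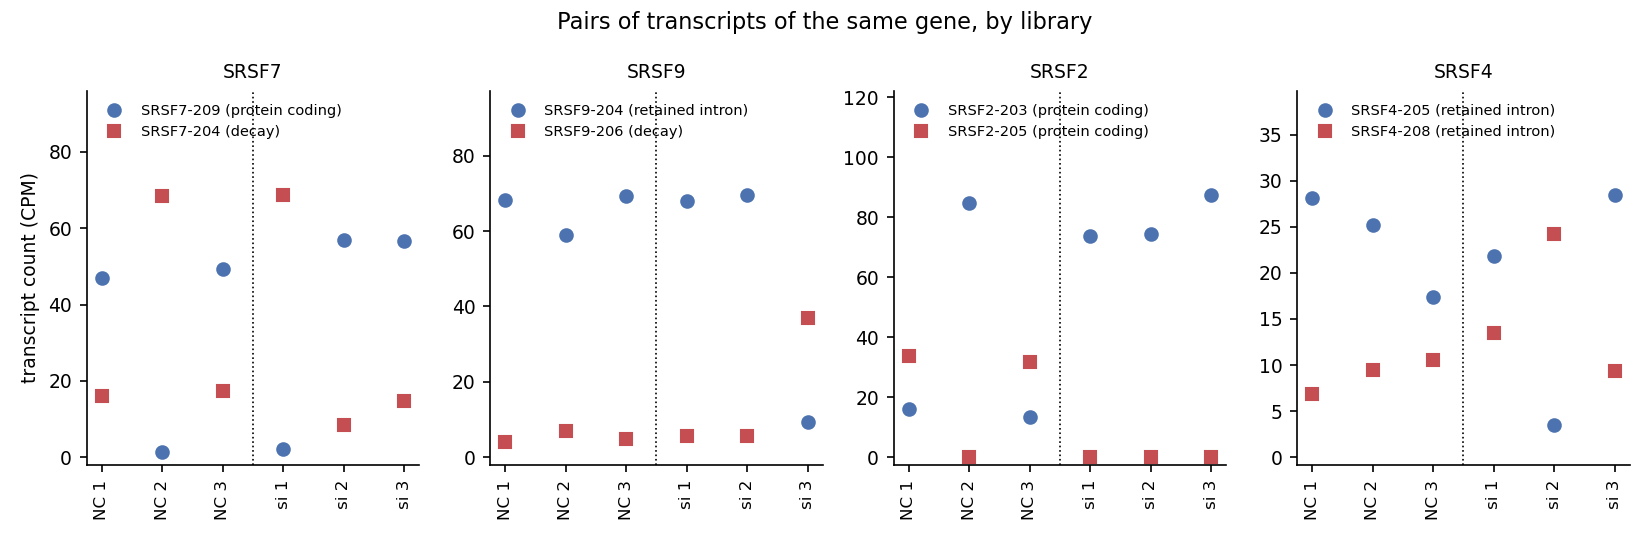
Counts of transcript pairs of SRSF7, SRSF9, SRSF2 and SRSF4 in CPM (y axis) by library, with siRNA-NC left and si-AC010789.1 right of the dotted line. In SRSF7, NC 2 and si 1 stand apart from the other 4 libraries, in SRSF9 si 3, in SRSF2 NC 1 and NC 3, and in SRSF4 si 2.

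The decay transcripts with a poison exon in SRSF3 and SRSF6 were steadier. SRSF3-203 had 229, 317 and 475 counts under siRNA-NC and 347, 428 and 430 under si-AC010789.1, and the decay sum of SRSF3 had a log2 fold change of 0.28 (SE 0.22, adjusted p = 0.734 by edgeR). The coding sum had 1785, 1908 and 1733 counts against 1590, 1478 and 1506, or 144 against 126 CPM, with a log2 fold change of -0.20 (SE 0.10, adjusted p = 0.594 by edgeR). Scaled to depth, both groups overlapped in both sums. SRSF6-202 had 265, 222 and 255 counts against 206, 289 and 256 beside 2093 to 2538 counts of the coding SRSF6-201. Its share was 8.04% to 11.2% under siRNA-NC and 8.94% to 10.7% under si-AC010789.1. The decay sum of SRSF1 was 1251, 896 and 917 counts against 800, 940 and 874, with replicate 1 of siRNA-NC the highest of the 6.

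SRSF10, SRSF11 and SRSF4 had the smallest mean shares of their gene totals on decay transcripts. The decay sum of SRSF10 was 164, 66 and 130 counts under siRNA-NC and 146, 94 and 101 under si-AC010789.1, beside a retained-intron sum that stayed between 1082 and 1297 counts. SRSF10-213, the leading retained-intron transcript, was slightly higher in every library under si-AC010789.1 when scaled to depth (log2 fold change 0.06, SE 0.081). Its groups almost met, at 95.10 CPM in siRNA-NC replicate 1 and 95.15 CPM in si-AC010789.1 replicate 2. SRSF11 had 18 to 36 decay counts per library. SRSF4 had 6, 0 and 6 decay counts against 2, 4 and 4, too few to be tested.

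In shares of the gene total, 28 combinations of a member and a type were compared with an exact permutation test, and the lowest p was 0.1, or 0.933 after Benjamini-Hochberg adjustment. Coding shares did not overlap between groups in 2 of 10 members, where 9.11% of all genes did so. SRSF2 had coding shares of 74.9% ± 1.86 under siRNA-NC and 80.3% ± 2.07 under si-AC010789.1, and SRSF9 49.1% ± 0.902 and 53.3% ± 5.38 (SD, n = 3). In SRSF9 the groups almost met, at 49.689% in siRNA-NC replicate 1 and 49.699% in si-AC010789.1 replicate 2. Replicate 3 of si-AC010789.1 stood apart at 59.5%. With counts divided by transcript length the SRSF2, protein_coding share difference was -0.89 percentage points in place of 5.39. Decay shares overlapped in all 10 members (9.51% of all genes did not) and retained-intron shares in all 8 (11.6% did not).

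Of the 104 transcripts of members, 74 passed the filter on low counts, and 0 of them had an adjusted p under 0.05 by edgeR, where 0.0135% of 44297 did. One passed at an unadjusted p under 0.05, SRSF5-211, against 5.74% of all; it also met the criteria of the study, as 3.5% of all did. DESeq2 called 0 of them, against 0.955% of all. The groups did not overlap in 5 of 74, against 14% of all: SRSF5-203 and SRSF10-213 were higher under si-AC010789.1, and SRSF1-205, SRSF5-205 and SRSF5-207 lower. In SRSF10-213, SRSF1-205 and SRSF5-207 the groups almost met. The lowest siRNA-NC and highest si-AC010789.1 libraries had 335.5 and 334.7 CPM in SRSF1-205, and 27.76 and 27.56 CPM in SRSF5-207. The median ratio of the highest to the lowest library was 2.28 for member transcripts and 2.81 for all transcripts, against 1.15 and 1.38 for gene sums.

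The partners of the SR proteins gave no call either. A list of 59 genes held SR-related proteins, the kinases, phosphatases and transport factors of SR proteins, and the core NMD factors, and 58 of them were tested. None rose and none fell at an adjusted p under 0.05 by edgeR (lowest adjusted p 0.121), while 6 of 58 passed at an unadjusted p under 0.05 (17.2% of all genes) and DESeq2 called 2 (5.18% of all genes). The median log2 fold change was 0.0052, against -0.00059 in all genes, and the groups did not overlap in 8 higher and 4 lower genes, where 25.1% of all genes did not overlap. By sublist, the groups did not overlap in 6 of 32 SR-related genes, 2 of 14 kinases, phosphatases and transport factors, and 4 of 12 NMD factors. The 2 genes called by DESeq2 alone were PPIG and PPP1CC. PPIG, a cyclophilin with an RS domain, had 47.5 ± 4.10 CPM under siRNA-NC and 70.0 ± 15.9 CPM under si-AC010789.1 (log2 fold change 0.56, SE 0.16, adjusted p = 0.167 by edgeR and 0.0408 by DESeq2). PPP1CC, a catalytic subunit of protein phosphatase, had 219 ± 18.8 and 267 ± 8.80 CPM (log2 fold change 0.28, SE 0.069, adjusted p = 0.121 by edgeR and 0.0363 by DESeq2). The 4 genes that were lower without overlap included SRSF8, a retrotransposed relative of SRSF2 (22.7 ± 1.12 and 19.0 ± 2.34 CPM, log2 fold change -0.25), and UPF2, a core NMD factor (98.2 ± 4.24 and 86.2 ± 5.94 CPM, log2 fold change -0.19). Their adjusted p by edgeR was 0.317 and 0.249, and SRSF8 did not pass at an unadjusted p under 0.05 either. The others were U2SURP, a protein of the U2 snRNP (321 ± 6.13 and 283 ± 14.5 CPM, log2 fold change -0.18, adjusted p = 0.147 by edgeR and 0.0925 by DESeq2), and SFSWAP (log2 fold change -0.13, adjusted p = 0.434 by edgeR). The SR kinases SRPK1 and CLK1 had log2 fold changes of 0.03 and -0.11. Beside PPIG and PPP1CC, the genes higher without overlap were U2AF2 (log2 fold change 0.25), U2AF1 (0.19), SMG5 (0.16), SMG9 (0.15), TNPO3 (0.11) and UPF1, the helicase of NMD (0.11). Of the NMD factors without overlap 3 were thus higher and 1 lower.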

How the data were processed

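The authors deposited raw counts, whole numbers in each library for 98886 Ensembl transcripts, each with a total of at least 3 over the libraries. Their processing notes list CASAVA 1.8 and TopHat2 2.0.6 and the builds mm10 and GRCh38 without a role; the annotation, the counting program and the division of reads among transcripts are not given in the sources used here. Identifiers were joined to GENCODE v29 (GRCh38), where 98803 of 98886 matched (99.907% to 99.941% of counts), and summed per gene and per gene and transcript type. The members and gene lists were chosen with earlier results of these data known.

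Gene sums, type sums and transcripts were each fitted over the whole table with edgeR 4.0.16 in R 4.3.3 (TMM factors 0.9935 to 1.0073, filterByExpr at a count of 10 and a total of 15, quasi-likelihood test, Benjamini-Hochberg adjustment). The biological coefficient of variation was 0.170, 0.385 and 0.698. Ratios of types were tested with limma 3.58.1 on log2 counts with a prior count of 0.5, for genes with a mean of at least 10 counts in both types. The study's own differential test was not run. Shares used two-sided exact permutation tests. Tests were checked on simulated data. The planted changes were larger than most estimates for members, so recovery of small changes was not checked. Alternatives were DESeq2 1.42.0, other normalization and filters, a replicate block, length scaling and leaving out each library. Limits of 3 counts cover counting error only. Named were all members, the highest transcript of each type, up to 10 transcripts with the largest change and separate groups, and, in the list of partners, genes that passed or the 2 most raised and 2 most lowered with separate groups; other genes and transcripts were named after their values were seen. Python 3.11.15, pandas 2.3.3 and matplotlib 3.10.9 were used.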

Additional observations from a re-analysis of the deposited data

How the results depend on the processing

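The counts of members called stayed at 0 for gene sums, type sums, single transcripts and ratios under DESeq2 (not run for ratios), other size factors, other filters and the replicate block. Leaving out each library gave 0 to 1 called gene sums (1 without siRNA-NC replicate 2, SRSF2) and 0 to 1 called genes in the list of partners (1 without si-AC010789.1 replicate 1). It also gave 2 to 7 of 28 coding, decay or retained-intron shares whose groups did not overlap, against 2 of 28 with every library kept. With fewer libraries groups separate more easily, and the share over all genes at this setting is not given here. With all 6 libraries it was 9.11%, 9.51% and 11.6% of genes for coding, decay and retained-intron shares. DESeq2 called 2 genes of the list of partners. With counts divided by length 1 of 28 shares did not overlap, again without the share over all genes. The cause was not tested. Deviations of same-numbered libraries correlated at 0.0900, 0.0027 and 0.00066, and those of differently numbered libraries at -0.077 to 0.079. So few values cannot exclude that libraries were paired by replicate number. With the replicate number as a block, 0 gene sums of members and 0 of all genes were called, against 130 of all genes without it.

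Some estimates changed sign, none of them called. Without a filter the log2 fold change of the SRSF7, gene sum, was -0.0032 and that of the SRSF11, gene sum, -0.0035. With the replicate block it was 0.077 for the SRSF2, nonsense_mediated_decay sum, 0.038 for the SRSF10, nonsense_mediated_decay sum, and 0.022 for SRSF10-215. Per length, the SRSF2, retained intron to coding ratio, was 0.097 in place of -0.41, the SRSF2, protein_coding share difference, -0.89 in place of 5.39 percentage points, and the SRSF10, retained intron to coding ratio, -0.10. The cause was not tested.

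Leaving out each library gave these ranges of log2 fold changes for gene sums: SRSF5 -0.075 to 0.13, SRSF6 -0.013 to 0.037, SRSF7 -0.030 to 0.027, SRSF9 -0.15 to 0.047 and SRSF11 -0.040 to 0.061. For coding sums they were SRSF4 -0.045 to 0.55, SRSF6 -0.021 to 0.016, SRSF7 -0.15 to 0.50, SRSF9 -0.022 to 0.074, SRSF10 -0.062 to 0.10 and SRSF11 -0.094 to 0.081. For decay sums they were SRSF1 -0.32 to 0.065, SRSF2 -0.79 to 0.82, SRSF6 -0.053 to 0.19, SRSF7 -0.81 to 0.21, SRSF10 -0.36 to 0.35 and SRSF11 -0.26 to 0.16, and for retained-intron sums SRSF2 -0.074 to 0.44 and SRSF4 -0.053 to 0.17. For transcripts they were SRSF1-204 -0.35 to 0.13, SRSF2-208 -1.48 to 0.71, SRSF4-201 -0.048 to 0.54, SRSF4-205 -0.90 to 0.084, SRSF6-201 -0.026 to 0.013, SRSF6-202 -0.054 to 0.18, SRSF7-204 -1.56 to 0.87, SRSF7-209 -0.32 to 0.80, SRSF9-201 -0.017 to 0.084, SRSF9-204 -0.77 to 0.055, SRSF10-203 -0.16 to 0.066, SRSF10-215 -0.43 to 0.33, SRSF11-202 -0.064 to 0.055 and SRSF11-212 -0.27 to 0.20. For the ratio of decay to coding they were SRSF1 -0.23 to 0.15, SRSF6 -0.067 to 0.20, SRSF7 -1.35 to 0.33, SRSF10 -0.35 to 0.45 and SRSF11 -0.22 to 0.24, and for that of retained intron to coding SRSF3 -0.11 to 0.25, SRSF4 -0.49 to 0.22, SRSF7 -0.33 to 0.46 and SRSF10 -0.072 to 0.11. Where a group was left with 2 libraries the fit pooled the spread over both groups.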
